A study of Homo sapiens with 6 samples.

Results

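The genes described here code for proteins of the extracellular matrix, for the proteases that cut it or shed proteins at its border, and for the integrins that bind it. They were taken by gene symbol from the deposited RNA-sequencing table of DU145 cells. A row was kept if the table gave it as protein coding and its symbol began as that of a collagen chain (COL), a laminin chain (LAM), a numbered integrin chain (ITGA or ITGB), a matrix metalloproteinase (MMP), a tissue inhibitor of metalloproteinases (TIMP), an ADAM or ADAMTS protease, a thrombospondin (THBS), a lysyl oxidase (LOX) or fibronectin (FN1). This gave 64 of the 10542 listed genes, namely 16 collagen symbols, 6 laminins, 13 integrins, 6 MMP symbols, 10 ADAMs, 5 ADAMTSs and 8 TIMPs, lysyl oxidases, thrombospondins and FN1. GENCODE 29 holds 157 protein-coding genes with such symbols, and those outside the table, among them MMP2, MMP9, LAMA3 and ITGB4, were not analysed here. A pair of the symbols belongs to other proteins. COL4A3BP is the ceramide transfer protein and MMP24OS is the opposite-strand gene of MMP24.

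DU145 is an established, androgen-independent human prostate cancer line. DU145-TFEB cells had received a lentivirus for overexpression of TFEB, a transcription factor of lysosomal genes, and DU145-vector cells the blank-vector lentivirus, and both were stable lines selected with puromycin. mRNA was sequenced from 3 libraries of each group, and the question was which genes differ when TFEB is overexpressed. Nothing in the labels says that the 3 libraries of a group came from separate cultures, so p-values measure only the spread between these libraries. The reads recovered on the listed genes ran from 13999961 to 16511477 per library.

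The label check came from TFEB itself, whose normalized counts were 6325, 6301 and 6036 in DU145-TFEB libraries 1 to 3 and 127, 124 and 125 in DU145-vector libraries 1 to 3, a log2 fold change of 5.62 (SE 0.075, adjusted p = 3.18e-10, limma). Of the epithelial markers fixed for the check, 4 of 9 were listed, and the keratins KRT8 (15509.8, 20808 and 14615 against 27882, 24614 and 28109) and KRT18 (5724, 7913 and 5517 against 11199.7, 9961 and 11366) were abundant in all 6 libraries and lower in DU145-TFEB. The other two were KRT19, whose groups overlapped (1451, 1884 and 1496 against 2119, 1846 and 2305, -0.38), and CLDN4, a claudin, which was higher as deposited (414, 322 and 443 against 248, 204 and 231, 0.78). Of 8 fibroblast markers, S100A4 and FBLN1 were listed, both higher in DU145-TFEB (summed normalized counts 4014 to 4380 against 1891 to 2123), and DCN, LUM, PDGFRA, PDGFRB, THY1 and FAP were not analysed here. After subtraction of a trend on base composition and gene length, S100A4 was at -0.025, FBLN1 at 0.35 and CLDN4 at -0.069. Among markers of androgen receptor-positive prostate lines, KLK4 (25.96 to 31.6 against 4.88 to 12), SLC45A3 (324 to 354 against 196 to 254) and STEAP2 (77.3 to 194 against 48 to 54.6) were higher in DU145-TFEB as deposited, with SLC45A3 at -0.32 with that trend removed. Of 4 markers of HEK293-type cells NEFL was listed, lower in DU145-TFEB. The part of these markers in the results was not tested. In bulk RNA, fewer cells of a type and less RNA per cell cannot be told apart.

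The extracellular matrix of epithelial tissue has a basement membrane, built from laminin and type IV collagen networks, and an interstitial part with fibrillar collagens, their associated collagens and fibronectin. Integrins are pairs of an alpha and a beta chain in the plasma membrane that bind these proteins and link them to the actin cytoskeleton or, in hemidesmosomes, to keratin filaments. MMPs and many ADAMTS proteases cut matrix proteins outside the cell, ADAMs mostly shed the outer parts of membrane proteins, TIMPs inhibit these enzymes, and lysyl oxidases crosslink collagen and elastin. Loss of basement membrane contact and pericellular proteolysis are studied in prostate cancer as steps of invasion.

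At the level of single genes, 46 of the 64 rose with TFEB and 18 fell, at an adjusted p below 0.05 (limma on log2(normalized count + 1), Benjamini-Hochberg over the 10542 listed genes). This count is no result by itself, because every listed gene has a deposited adjusted p below 0.05 and 100% of all listed genes passed here too, 47.6% of them higher and 52.4% lower (47% and 53% of the protein-coding ones). The median log2 fold change of the list was 0.69, against -0.36 for all listed genes and -0.37 for the protein-coding ones. Library by library, the median distance of the 64 genes from their own mean over the 6 libraries was 0.37, 0.28 and 0.36 in DU145-TFEB and -0.27, -0.41 and -0.26 in DU145-vector on the log2 scale, with each DU145-TFEB library above 0 and each DU145-vector library below it. At the study's cutoffs, which add an absolute log2 fold change above 1.5, 5 genes were called higher (ITGB2, ITGA1, MMP11, ADAM8 and COL14A1) and 5 lower (COL21A1, COL4A3BP, COL17A1, ADAM32 and ADAM10). With a pseudocount of 10, ITGA1 (1.07), COL21A1 (-1.44), COL17A1 (-1.35) and ADAM32 (-1.30) were not past the fold cutoff. The background over all listed genes was 2.54% called higher and 16.5% called lower, or 1.82% and 15.2% of the protein-coding genes. The values of the 6 libraries did not overlap between groups for 63 of the 64 genes, all but COL13A1, against 99.3% of all listed genes and 99.4% of the protein-coding ones. The smallest p that an exact two-sided permutation test of 3 against 3 libraries allows is 0.1.

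**Figure D1:**
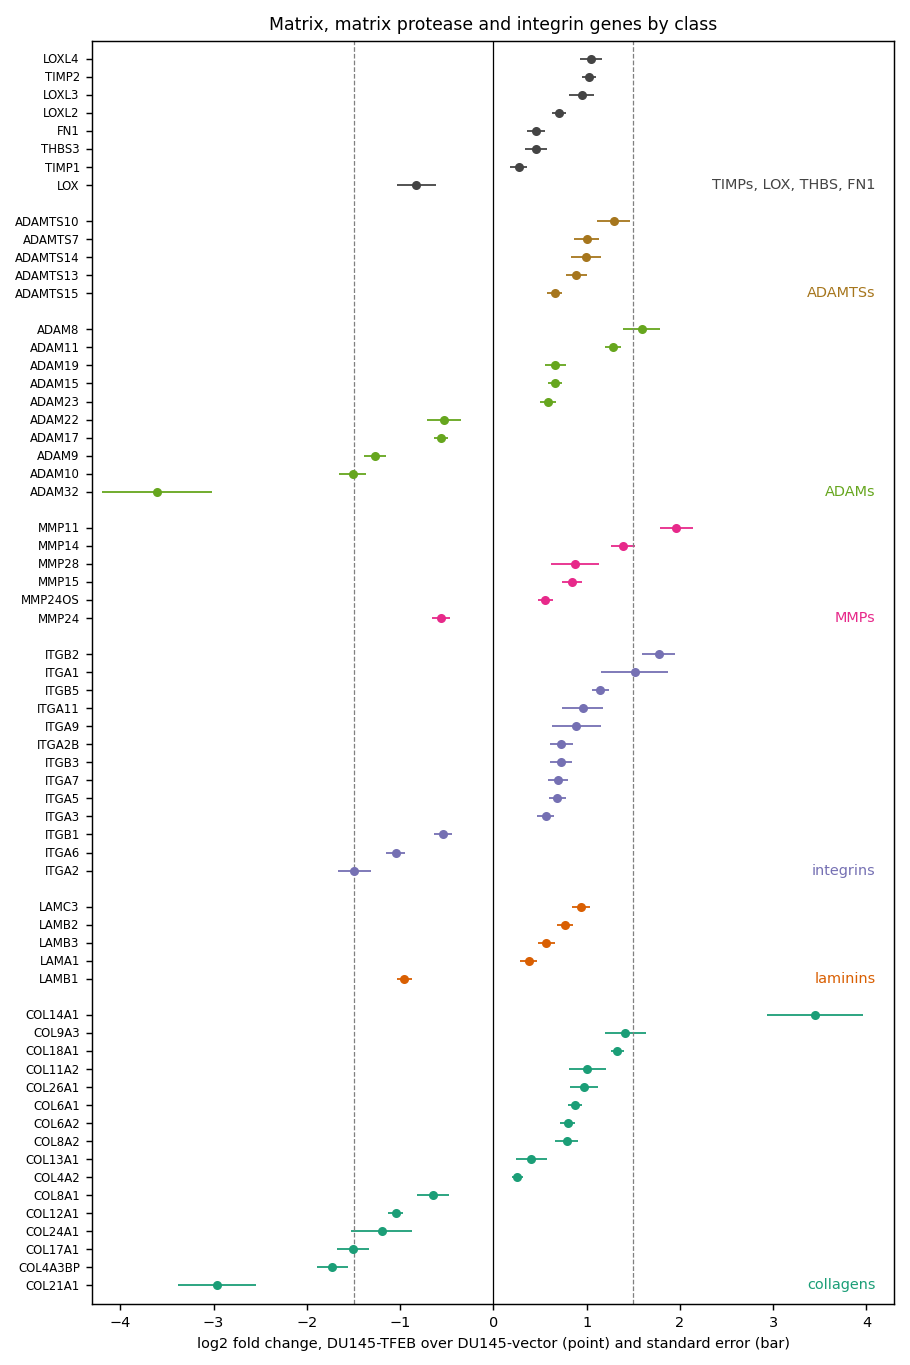
Log2 fold change of 63 of the 64 genes, DU145-TFEB over DU145-vector on the log2(normalized count + 1) scale, by class, with bars of 1 standard error from limma and dashed lines at the cutoff of 1.5 in either direction. 46 of the drawn genes lie right of 0 and 17 left of it, and 10 lie beyond the dashed lines, while 27 of the 64 change sign when the dependence on base composition and gene length is taken out.

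The shift followed the base composition of the transcripts in this list as in the whole table. Across the 64 genes, the log2 fold change correlated with the GC content of the longest transcript with a Spearman's rho of 0.596, and across the 10537 listed genes with a GC value with 0.739. These are correlations across genes of the same 6 libraries, and genes are not independent replicates. Of the 22 genes of the list with a GC content below 50%, 7 were higher and 15 lower (median -0.74), and of the 42 with at least 50%, 39 were higher and 3 lower (median 0.82). Among all listed protein-coding genes, the share that was higher in DU145-TFEB was 12.3% below 50% GC and 92.5% at or above it. The median GC content was 57.1% in the list and 47.3% in the table. A loess fit of each library's values on GC content and gene length gave this trend. When it was subtracted, the median of the list became -0.14 and that of all listed genes -0.30, a gap of 0.16 in place of 1.05. Of the list, 27 genes were then higher and 37 lower, against 3059 higher and 7478 lower of the 10537 listed genes with a GC value. Counts of higher and lower genes by class or list after subtraction are read against this background. Since the median of the table stayed below 0, values after subtraction are read against -0.30 and not only against 0. The source of the trend was not tested. Genes that departed from their GC neighbours are therefore named in each class with both values.

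**Figure D2:**
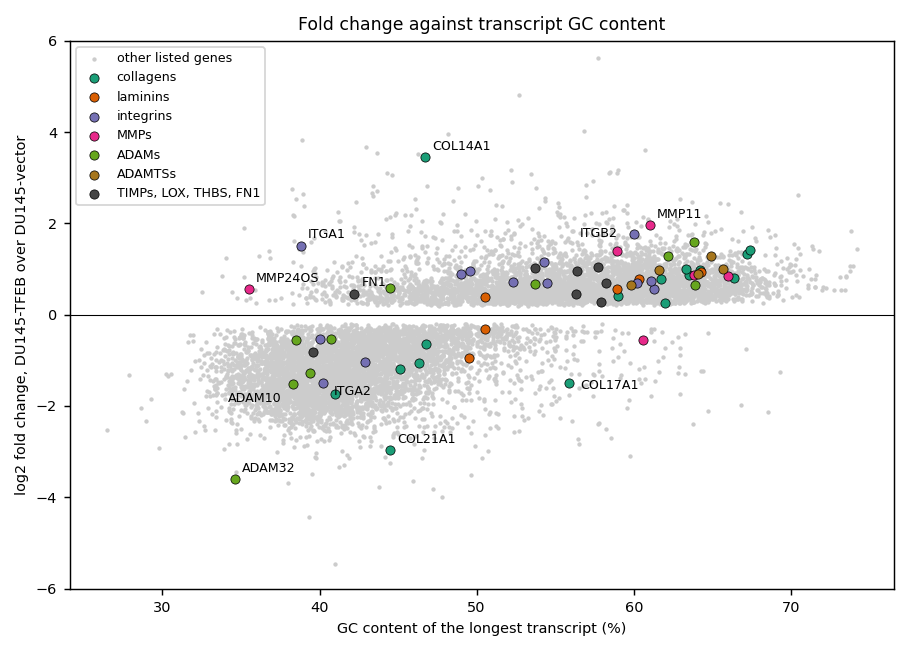
Log2 fold change, DU145-TFEB over DU145-vector, against the GC content of the longest transcript in percent, for all listed genes (grey) and the 64 genes by class (coloured points). Few points lie near 0 because the table lists only genes with a deposited adjusted p below 0.05. ITGA1, FN1 and MMP24OS are higher at a GC content of 38.8%, 42.2% and 35.5%, where most listed genes are lower, and COL17A1 and MMP24 are lower at 55.9% and 60.6%.

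The collagens were split by type: of the 16 symbols, 10 were higher and 6 lower (median 0.60), 1 was called higher and 3 lower, and with the trend removed 3 were higher and 13 lower (median -0.31). Without COL4A3BP the median was 0.78. Among the chains of basement membranes, COL18A1, which carries the endostatin fragment, had normalized counts of 13134, 12022 and 12248 with TFEB and 5213, 4708 and 4968 with the vector. Every DU145-TFEB library was thus above every DU145-vector library, and the mean rose 2.51-fold, with a log2 fold change of 1.33 (SE 0.069, adjusted p = 2.30e-06). Per kb of the deposited gene length, it was the most abundant collagen in both groups. In DU145-vector this order rests on the lengths, 8525 bases for COL18A1 and 19293 for COL4A2, whose counts were higher there. The difference of COL18A1 stayed positive with the trend removed (0.25, limma adjusted p = 0.0115). COL4A2, a chain of the type IV network, had 9146, 9228 and 8849.8 against 7753, 7443 and 7589, a small rise of 0.26 (SE 0.060) in tightly grouped libraries that became -0.38 with the trend removed.

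COL6A1 and COL6A2 code for chains that are assembled together into type VI microfibrils. COL6A1 had 3495, 3131 and 3269.7 in the DU145-TFEB libraries against 1831, 1722 and 1841, a log2 fold change of 0.87 (SE 0.072, adjusted p = 6.55e-06). COL6A2 had 4567, 4472 and 4304 against 2662, 2316 and 2717, with 0.80 (SE 0.078, adjusted p = 1.50e-05). Both chains rose by nearly the same factor, 1.83-fold and 1.73-fold, and both had a small negative value with the trend removed (-0.18, adjusted p = 0.083, and -0.31, adjusted p = 0.0013).

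The collagens that decorate fibrils did not move together. COL14A1 had 24.2, 24.6 and 22.8 in DU145-TFEB and 0, 1.95 and 3 in DU145-vector, where library 1 held no read. The summed reads were 72 against 5, a ratio of 14.6 with an exact 95% interval from 5.95 to 46.2 for counting error only. COL21A1 showed the opposite, with 4.21, 0.91 and 2.08 against 27.4, 22.4 and 21. Its summed reads were 7 against 72, so that the level in DU145-vector was 10.2 times that in DU145-TFEB (exact 95% interval 4.70 to 26.2). Both are low genes whose groups lay far apart on the count scale, and both kept direction and call with the trend removed (3.74 and -2.51). COL12A1, the abundant collagen of this kind, fell 2.07-fold, from 1737, 1908 and 1889 to 835, 884 and 953, a log2 fold change of -1.05 (SE 0.082, adjusted p = 5.55e-06). COL9A3 had 153, 88.3 and 120.4 against 49.0, 43.9 and 38, just short of the fold cutoff at 1.42 (SE 0.22), and 0.29 with the trend removed (adjusted p = 0.309). It was called higher with DESeq2 size factors (1.65), DESeq2 (1.71), edgeR (1.53) and quantile normalization (1.69).

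COL17A1, the transmembrane collagen of hemidesmosomes, was the GC-rich collagen that fell. Its normalized counts were 40.0, 52.8 and 46.7 in DU145-TFEB and 122, 139 and 139 in DU145-vector, a log2 fold change of -1.51 (SE 0.17, adjusted p = 3.49e-05), and removal of the trend made the difference larger (-2.21, adjusted p = 1.35e-06). It sat at the edge of the fold cutoff and was not called without DU145-TFEB library 1 (-1.40), DU145-vector library 2 (-1.47) or DU145-vector library 3 (-1.47). Nor was it called with a pseudocount of 10 (-1.35), DESeq2 size factors (-1.27), DESeq2 (-1.28), edgeR (-1.43) or quantile normalization (-1.26). The other transmembrane collagen, COL13A1, was the gene of the list whose groups overlapped, with 505, 471 and 578 against 401, 301 and 489. Its log2 fold change of 0.41 (SE 0.17, adjusted p = 0.0387) lost significance without DU145-TFEB library 1 or 3 or DU145-vector library 1 or 2, and fell to 0.22 (adjusted p = 0.142) without DU145-vector library 2. It turned to -0.49 (adjusted p = 0.0138) with the trend removed.

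The remaining collagens had lower counts. As deposited, the short-chain collagens COL8A1 and COL8A2 were at -0.64 and 0.78, but with the trend removed both were below 0 and neither passed the test (-0.32, adjusted p = 0.129, and -0.22, adjusted p = 0.203). The fibrillar chains COL24A1 and COL11A2 were at -1.20 and 1.01, and COL26A1 was at 0.97. None of these 3 passed the test with the trend removed, at -0.69 (adjusted p = 0.0785), -0.040 (adjusted p = 0.877) and -0.12 (adjusted p = 0.485). For COL8A1 significance was also lost with DESeq2 on the recovered reads (adjusted p = 0.156) and for COL24A1 with quantile normalization (adjusted p = 0.0531). COL4A3BP, which is no collagen but moves ceramide between membranes, fell from 634, 711 and 595 to 215, 148 and 228 (-1.73). It was not past the fold cutoff with the trend removed (-0.83), DESeq2 size factors (-1.49), DESeq2 on the recovered reads (-1.48) or quantile normalization (-1.27).

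**Figure D3:**
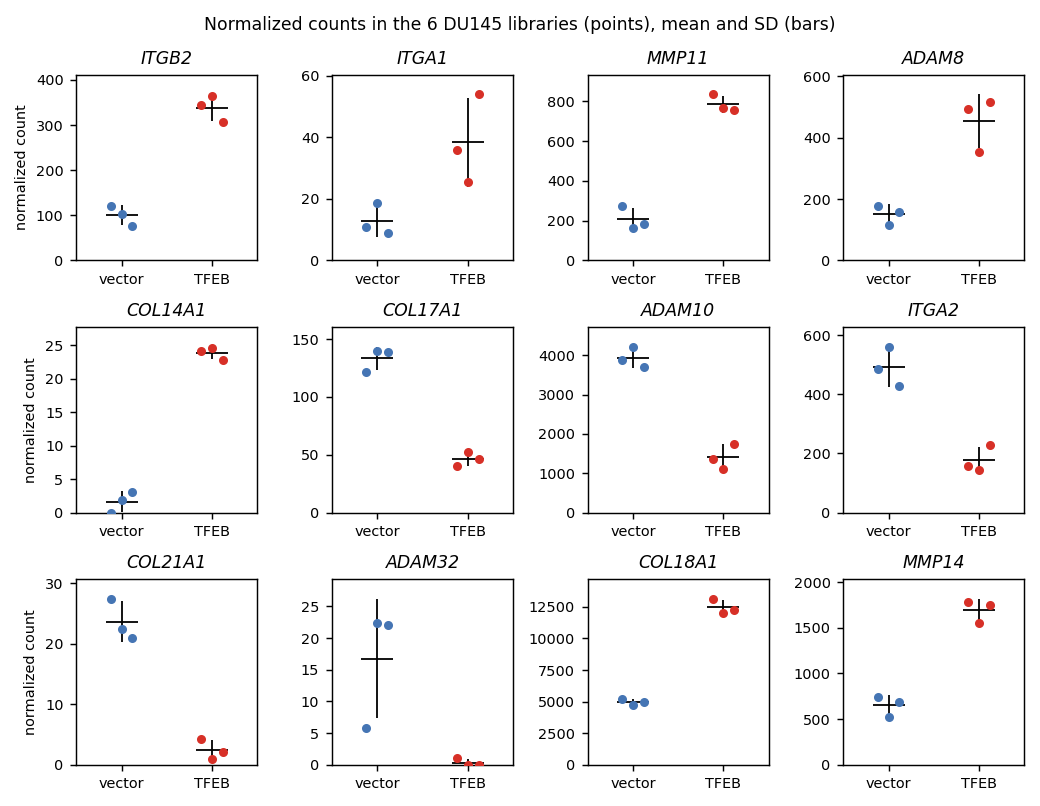
Normalized counts of 12 genes in the 3 DU145-vector (blue) and 3 DU145-TFEB libraries (red), 1 point per library, with the mean (horizontal bar) and SD (vertical bar) on a linear axis from 0. In all 12 panels the points of the groups do not overlap, and COL14A1, COL21A1 and ADAM32 rest on fewer than 30 normalized counts in each library.

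Of the laminins, 4 were higher and 2 lower (median 0.47), and with the trend removed only LAMA1 was higher and 5 were lower (median -0.26). The beta chains, which can replace each other in the laminin trimer, went different ways. LAMB1 fell from 4393, 4297 and 4331 in DU145-vector to 2371, 2016 and 2344 in DU145-TFEB, a log2 fold change of -0.96 (SE 0.078, adjusted p = 6.52e-06). LAMB2 rose from 3236, 2774 and 3264 to 5590.5, 4906 and 5303, with 0.77 (SE 0.085, adjusted p = 2.88e-05). LAMB1 was the more abundant of the pair per length in DU145-vector (533 against 450.3 normalized counts per kb) and LAMB2 in DU145-TFEB (767 against 276). The fall of LAMB1 stood with the trend removed (-1.01, adjusted p = 1.14e-06), while LAMB2 was then at -0.18 (adjusted p = 0.0847).

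LAMB3 codes for a chain of the epithelial laminin that anchors hemidesmosomes. It had 7571, 8552 and 7560.2 in DU145-TFEB against 5579, 4682 and 5738, a rise of 0.57 (SE 0.092) as deposited, and was at -0.34 with the trend removed. LAMC3 had 683, 676 and 669.7 against 365, 321 and 376 (0.94, and -0.12 with the trend removed). LAMA1, the alpha chain of early basement membranes, had 2455, 2242 and 2712 against 1991, 1770.2 and 1934, a small difference of 0.38 (SE 0.088) that was 0.53 with the trend removed.

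The integrins were mostly higher: 10 of 13 rose and 3 fell (median 0.72), 2 were called higher and none lower, and with the trend removed 8 were higher and 5 lower (median 0.20). The 3 that fell were ITGB1, the beta chain shared by most matrix receptors, and its partners ITGA2 and ITGA6. ITGB1 was the most abundant gene of the whole list per length. Its normalized counts were 22317, 23013 and 21867 in DU145-vector and 15329, 13525 and 17614 in DU145-TFEB, a log2 fold change of -0.54 (SE 0.094, adjusted p = 4.49e-04), which turned to 0.30 with the trend removed (adjusted p = 7.16e-04).

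The collagen receptors of the ITGB1 group split. ITGA2, the epithelial collagen receptor, fell from 487, 562 and 429 to 157, 146 and 229. At -1.49 (SE 0.18, adjusted p = 5.08e-05) it stood just short of the fold cutoff, and it remained lower with the trend removed (-0.58, adjusted p = 0.00201). ITGA1, the related receptor of mesenchymal cells, rose from 10.8, 18.5 and 9 to 35.8, 25.5 and 54.0. The spread in DU145-TFEB was wide (38.4 ± 14.4, SD, n = 3, against 12.8 ± 5.07), and the log2 fold change of 1.51 (SE 0.36, adjusted p = 0.00264) was below the cutoff without DU145-TFEB library 3 (1.24), DU145-vector library 1 (1.43) or DU145-vector library 3 (1.31). ITGA1 is AT-rich, at 38.8% GC, and its value was 2.59 with the trend removed (adjusted p = 1.39e-05). ITGA11, which binds fibrillar collagen, rose too, with 0.96 as deposited and 1.09 with the trend removed (adjusted p = 5.22e-04).

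The laminin receptors also differed from each other. ITGA6 fell from 2042, 1963 and 2173 to 1007, 869 and 1131, a log2 fold change of -1.05 (SE 0.10, adjusted p = 1.47e-05), and was lower with the trend removed as well (-0.44, adjusted p = 6.37e-04). ITGA3 rose from 11981, 10218 and 12914 to 16766, 17854 and 16934 (0.56, SE 0.089), but was at -0.17 with the trend removed. Per length, ITGA3 was already the more abundant in DU145-vector, with 1194 against 315 normalized counts per kb, and in DU145-TFEB the values were 1753 and 153. ITGA7, the laminin receptor known from muscle, was at 0.70, and at -0.25 with the trend removed.

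Apart from ITGB1, which was lower, the chains of the list that bind fibronectin and vitronectin were higher as deposited. The fibronectin receptor chain ITGA5 had 3577, 4064 and 3674 against 2460.3, 2078 and 2511, a log2 fold change of 0.69 (SE 0.091, adjusted p = 8.45e-05). ITGB5, a partner of ITGAV for vitronectin, was 2.21-fold higher, with 5041, 5499 and 5136 against 2455, 2080.3 and 2569 (1.15, SE 0.089, adjusted p = 5.46e-06), and stayed higher with the trend removed (0.55, adjusted p = 1.98e-05). ITGB3, the other vitronectin partner, was at 0.72, while ITGB3 and ITGA5 were at 0.20 (adjusted p = 0.164) and 0.11 (adjusted p = 0.138) with the trend removed. Their alpha partner ITGAV is named without a digit and so lies outside the list. It fell from 2095, 2626 and 2404 to 759.7, 537 and 1009 (-1.67, SE 0.20, adjusted p = 4.03e-05), which places it among the genes called lower, at 38.3% GC and -0.61 with the trend removed. ITGB2, the beta chain of leukocyte integrins, had the largest rise of the class, with 345, 364 and 306 against 121, 103 and 76 (1.77, SE 0.18, adjusted p = 1.71e-05). It was called higher as deposited, and was at 0.84 with the trend removed (adjusted p = 0.00107). The antisense gene ITGB2-AS1 overlaps it, and the strand setting of the counting is not given in the sources used here. ITGA9 and ITGA2B, the platelet partner of ITGB3, were at 0.89 and 0.73, and at 0.90 and -0.25 with the trend removed.

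Among the MMPs, 5 of 6 symbols were higher and MMP24 was lower (median 0.86), 1 was called higher, and with the trend removed 3 were higher and 3 lower (median 0.13). Without MMP24OS, which is no MMP, the median was 0.88. With the trend removed it was then -0.22, with 2 higher and 3 lower. MMP11, or stromelysin-3, is activated inside the cell by furin and lies at chr22:23768226-23784316 (GRCh38). Its normalized counts were 834, 767 and 755 in DU145-TFEB (785 ± 42.8, SD, n = 3) and 273, 164 and 181 in DU145-vector (206 ± 59.0). All DU145-TFEB libraries were above all DU145-vector libraries, and the mean was 3.81-fold higher, with a log2 fold change of 1.96 (SE 0.18, adjusted p = 9.64e-06). It stayed called without any single library (1.81 to 2.18) and was 0.98 with the trend removed (adjusted p = 1.68e-04). The first bases of MMP11 in GENCODE 29 overlap CHCHD10 on the other strand, which had 1249, 1606 and 1267 against 983, 872 and 1069, a smaller difference of 0.49.

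The membrane-type MMPs act at the cell surface. MMP14, which activates the MMP2 proenzyme, had 1780.4, 1552 and 1749.6 in DU145-TFEB against 744, 529 and 683 in DU145-vector, and rose 2.60-fold (1.39, SE 0.13, adjusted p = 1.05e-05), or by 0.48 with the trend removed (adjusted p = 0.00335). MMP15 had 1213, 1127 and 1220.0 against 697, 564 and 734 (0.84, SE 0.11), but -0.27 with the trend removed. MMP24 had 538, 470.4 and 506 against 797, 745 and 695, the lower value in every DU145-TFEB library (-0.56, SE 0.096, adjusted p = 3.98e-04). At 60.6% GC, MMP24 ran against its GC neighbours, and its value was -1.54 with the trend removed, whereas quantile normalization gave an adjusted p of 0.147. MMP24OS lies over MMP24 on the opposite strand and went the opposite way, with 1472, 1504 and 1401 against 1013, 926 and 1036 (0.56). Reads of the overlap cannot be assigned to either gene without strand. MMP28, or epilysin, was low, with 46.3, 30.0 and 35.3 against 15.7, 21.5 and 22 (0.88, SE 0.26, and -0.22 with the trend removed, adjusted p = 0.509).

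As deposited, both listed TIMPs rose, but to different extents. TIMP2, which inhibits MMPs and also takes part in the activation of the MMP2 proenzyme by MMP14, had 12869, 12133 and 12997 in DU145-TFEB and 6516, 5716 and 6475 in DU145-vector. It was 2.03-fold higher (1.02, SE 0.073, adjusted p = 4.13e-06) and stayed higher with the trend removed (0.43, adjusted p = 2.88e-04). TIMP1, a weak inhibitor of the membrane-type MMPs, had 1195, 1351 and 1148 against 1047, 949 and 1062, a difference of 0.27 (SE 0.090) that turned to -0.54 with the trend removed. Per length, TIMP2 was 1107 and TIMP1 661 normalized counts per kb in DU145-vector, and 2249 and 799 in DU145-TFEB.

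The ADAMs were evenly divided, with 5 higher and 5 lower (median 0.03), 1 called higher and 2 lower, and with the trend removed 6 higher and 4 lower (median 0.21). As deposited, the sheddases of broad substrate range fell. ADAM10, the main sheddase of Notch and cadherins, fell from 3884, 4221 and 3712 to 1356, 1106 and 1756, 2.80-fold (-1.51, SE 0.15, adjusted p = 1.38e-05). ADAM9 fell from 5748, 6656 and 5590 to 2395, 2170.2 and 2929 (-1.27, SE 0.11). ADAM17, which releases tumour necrosis factor and ligands of the epidermal growth factor receptor, fell from 2458, 2389 and 2181 to 1542, 1543 and 1679 (-0.56, SE 0.077). All 3 are AT-rich, at 38.3%, 39.4% and 38.5% GC. With the trend removed, ADAM10 was at -0.44, ADAM9 at -0.34, close to the median of -0.30 over all listed genes, and ADAM17 was higher (0.49, adjusted p = 5.75e-04). ADAM10 sat at the fold cutoff and was not called without DU145-TFEB library 1 (a log2 fold change of -1.496), DU145-TFEB library 2 (-1.35) or DU145-vector library 2 (-1.46). Nor was it called with DESeq2 size factors (-1.27), DESeq2 (-1.25), edgeR (-1.41) or quantile normalization (-1.43).

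The catalytic ADAMs that rose were ADAM8, ADAM15 and ADAM19. ADAM8, known from leukocytes, had 492, 354 and 515 in DU145-TFEB against 178, 115 and 158 in DU145-vector, 3.02-fold (1.59, SE 0.20, adjusted p = 5.37e-05), and 0.53 with the trend removed (adjusted p = 0.0293). It was not called without DU145-TFEB library 3 (1.49) or DU145-vector library 2 (1.41). ADAM15 had a log2 fold change of 0.66 and ADAM19 of 0.67, and these became -0.40 and 0.16 with the trend removed.

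The ADAMs without an active protease site were split as well. ADAM11 rose from 779, 664 and 774 to 1794, 1863 and 1738, 2.43-fold (1.28, SE 0.087, adjusted p = 3.62e-06), and was 0.26 with the trend removed (adjusted p = 0.00525). ADAM23 rose by 0.59, and by 1.01 with the trend removed (adjusted p = 1.35e-06). ADAM11, ADAM22 and ADAM23 are known as receptors of secreted LGI proteins in neurons. ADAM22 was at -0.53 (SE 0.18), lost significance without DU145-vector library 3 (adjusted p = 0.0693) and with DESeq2 (adjusted p = 0.127), was -0.31 without DU145-TFEB library 2, and turned to 0.29 with the trend removed. ADAM32, described in testis, had 1.05, 0 and 0 in DU145-TFEB and 5.88, 22.4 and 22 in DU145-vector. Its summed reads were 1 against 51, a ratio of 50.5 for DU145-vector over DU145-TFEB with an exact 95% interval from 8.66 to 2032, so that only its direction is well determined.

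All 5 ADAMTSs rose as deposited (median 0.99, none called), and with the trend removed 1 was higher and 4 lower (median -0.09). They were the class with the highest GC content, with a median of 64.1%. ADAMTS10, which binds fibrillin microfibrils, had 249, 215 and 224 against 105, 72.2 and 106 (1.29, SE 0.18, adjusted p = 9.96e-05). It was called higher with DESeq2 size factors (1.53), DESeq2 (1.52) and quantile normalization (1.66). ADAMTS7, which cuts cartilage oligomeric matrix protein, had 463, 399 and 410.1 against 216, 180.4 and 241 (1.00, SE 0.13). In both, every DU145-TFEB library was above every DU145-vector library. ADAMTS13, the protease of von Willebrand factor, had 439.8, 369 and 434 against 222, 234 and 212 (0.89, SE 0.11). ADAMTS15, which cuts aggrecan and versican, had 1793, 1589 and 1591 against 1002, 1086 and 1064 (0.66, SE 0.081) and was by far the most abundant of the class. ADAMTS14, a procollagen N-proteinase, was at 0.99. With the trend removed, only ADAMTS15 passed the test, as lower (-0.28, adjusted p = 0.0199), and the other 4 lay between -0.17 and 0.21.

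As deposited, the lysyl oxidases rose except LOX itself. LOXL2, the abundant member, had 8202, 7766 and 8135 in DU145-TFEB against 5235, 4527 and 5080 in DU145-vector (0.70, SE 0.073, adjusted p = 2.06e-05). LOXL4 had 882, 877 and 756 against 464, 380.4 and 373 (1.05, SE 0.11), and LOXL3 had 241, 203 and 202 against 113, 104 and 116 (0.95, SE 0.14). LOX fell from 60.8, 52.7 and 62 to 30.5, 28.2 and 39.5 (-0.83, SE 0.21, adjusted p = 0.00372), which did not pass the test with DESeq2 on the recovered reads (adjusted p = 0.0691). With the trend removed, none of these 4 passed the test, at -0.17 for LOXL2, 0.15 for LOXL3, 0.18 for LOXL4 and 0.0075 for LOX.

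FN1 codes for fibronectin, the ligand of the receptor that contains ITGA5. It had 684, 719.8 and 794 in DU145-TFEB and 555, 493 and 550 in DU145-vector, a log2 fold change of 0.46 (SE 0.097, adjusted p = 0.00144). FN1 is AT-rich, at 42.2% GC, and long, and its value was 1.26 with the trend removed (adjusted p = 4.75e-06). THBS3, the listed thrombospondin, had 607, 466 and 523 against 388, 356 and 412 (0.46, SE 0.12), and -0.33 with the trend removed.

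Compared per length, the list spanned more than 4 orders of magnitude. The lengths are the deposited gene lengths, and the order of genes depends on them. In DU145-vector, the mean normalized count per kb of gene length was 3726 for ITGB1, 1194 for ITGA3, 1138 for LAMB3, 1107 for TIMP2, 868 for ADAM9 and 867 for LOXL2. In DU145-TFEB the order at the top was ITGB1 (2577), TIMP2 (2249), ITGA3 (1753), LAMB3 (1684), COL18A1 (1463) and LOXL2 (1408). These leading genes are integrin chains, a laminin chain, a basement membrane collagen, a protease inhibitor, a sheddase and a crosslinking enzyme. The genes with the largest fold changes stood lower, with MMP11 at 39.8 and 152, ITGB2 at 14.7 and 49.8, ADAM8 at 31.5 and 94.9, and COL14A1 at 0.191 and 2.76 in DU145-vector and DU145-TFEB.

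**Figure D4:**
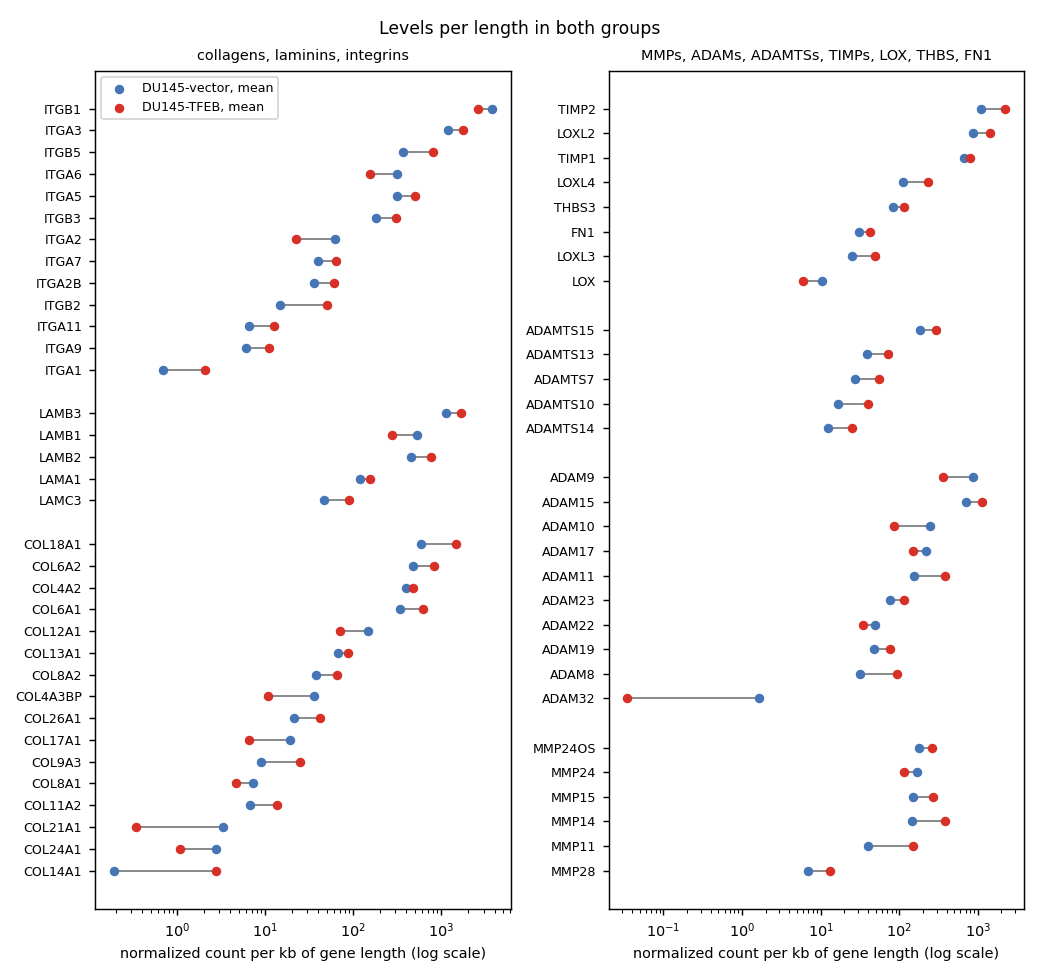
Mean normalized count per kb of gene length (log axis) of 63 of the 64 genes in DU145-vector (blue) and DU145-TFEB (red), 3 libraries each, ordered within each class by the DU145-vector level, with a line joining the means. ITGB1 is the highest gene in both groups, LAMB1 and LAMB2 exchange their order, and the widest lines belong to the low genes ADAM32, COL14A1 and COL21A1.

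**Figure D5:**
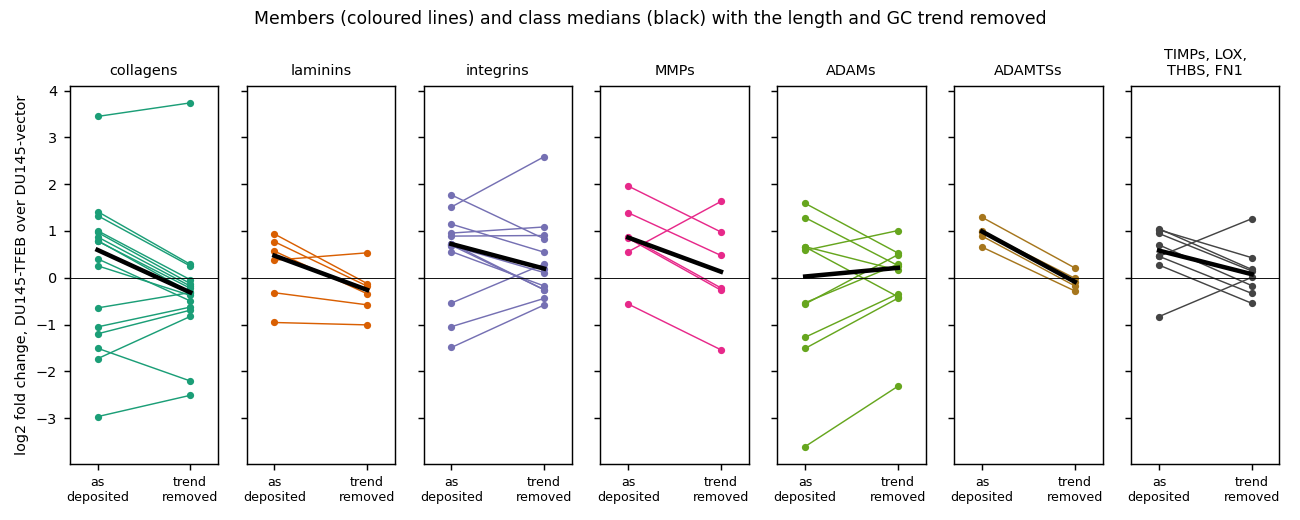
Log2 fold change, DU145-TFEB over DU145-vector, of each gene (coloured lines) and the class median (black) as deposited and after subtraction of the trend on base composition and gene length. The median moves below 0 for collagens (-0.31), laminins (-0.26) and ADAMTSs (-0.09), stays above 0 for integrins (0.20), MMPs (0.13) and the TIMP, LOX, THBS and FN1 group (0.08), and rises for ADAMs (0.21). After subtraction the median of all listed genes is -0.30. Collagens and laminins lie close to it and the other classes above it. The MMP median includes MMP24OS, which is no MMP, and without it the median moves below 0 (-0.22).

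The 2 treatments of the trend can be read together. Genes with an adjusted p below 0.05 and the same sign under both included COL18A1, COL14A1, LAMA1, ITGB2, ITGA1, ITGA9, ITGA11, ITGB5, MMP11, MMP14, MMP24OS, ADAM8, ADAM11, ADAM23, TIMP2 and FN1 among the higher ones. Among the lower ones were COL21A1, COL4A3BP, COL17A1, COL12A1, LAMB1, ITGA2, ITGA6, MMP24, ADAM32, ADAM10 and ADAM9. Signs are counted from 0 here, and ADAM9 lay close to the median of the table. With the trend removed, the sign changed in 27 of the 64 genes and the test was no longer passed in 9 more.

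Genes that work with these proteins were counted from lists written from general knowledge. Of 24 enzymes and chaperones of collagen processing, 21 were listed, 17 of them higher and 4 lower (median 0.64), and with the trend removed 10 were higher and 11 lower (median -0.030). The highest were FKBP10, a prolyl isomerase of the endoplasmic reticulum (8478, 8281 and 8132 against 3763, 3532 and 3670, 1.18), and COLGALT1, a collagen galactosyltransferase (7629.7, 7758 and 7337 against 3658, 3041 and 3422, 1.17), at 0.26 and 0.30 with the trend removed. The lowest were PLOD2, a lysyl hydroxylase (2178, 1722 and 2660.2 against 5970.3, 6877 and 5710, -1.52, the gene of this list called lower), and P4HA1, a prolyl hydroxylase subunit (743, 725 and 856 against 2020.2, 2049 and 2079, -1.41). Both hydroxylase genes had a GC content below 41% and were at -0.29 and -0.84 with the trend removed.

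Of 42 other matrix glycoproteins and proteoglycans, 22 were listed, 20 of them higher and 2 lower with none called (median 0.71), and with the trend removed 14 were higher and 8 lower (median 0.093). FBLN2, a fibulin of basement membranes and elastic fibres, had 31.6, 39.1 and 25.96 against 21.6, 7.80 and 8 (1.43), and VTN, vitronectin, had 91.5, 57.3 and 76.8 against 22.5, 29.3 and 29 (1.43). Neither passed the test with the trend removed (0.42, adjusted p = 0.311, and 0.59, adjusted p = 0.058). The lower ones were CD44, the hyaluronan receptor (2058, 2190.2 and 2351 against 3542, 3305 and 3507, -0.65), and FBN1, fibrillin (153, 121 and 131 against 184, 185 and 170, -0.42), at -0.15 (adjusted p = 0.054) and 0.026 with the trend removed. Of the hemidesmosome partners of COL17A1 and ITGA6, DST, the linker to keratin filaments, fell from 7412, 8623 and 7913 to 2191, 1125 and 2966 (-2.04, SE 0.28) and the tetraspanin CD151 was at 0.48, with -0.94 and -0.57 with the trend removed. Of 6 integrins named without a digit, ITGAV and ITGAE were listed, and ITGAE had 992, 1015 and 926 against 725, 756 and 743 (0.40, and -0.24 with the trend removed).

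Promoters were read to see how often these genes carry the letters CACGTG, the core that TFEB binds in lysosomal genes. RefSeq promoters (GRCh38.p14, from 250 bases before to 50 bases after a start) were at hand for 44 of the 64 genes, with 62 starts in all. CACGTG, which is the same on both strands, was in 2 of these 62 (3.23%), against 7.26% of all 35116 promoters and 9.18% of the 10892 promoters of listed protein-coding genes. The longer TCACGTG, which contains it, was in 1 of 62 (1.61%, against 3.71% and 5.52%). CATGTG, read on both strands and added after the files were seen, was in 2 of 62 (3.23%, against 11.1% and 7.18%), at a start of COL24A1 and a start of LOXL3. TGACTCA or TGAGTCA, the letters of AP-1 sites and reverse complements of each other, were in 2 of 62 (3.23%, against 4.95% and 3.3%), in ITGA5 and at 1 of the starts of LAMB3. A match is a description of letters, not a site of binding.

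Both genes with CACGTG were lower in DU145-TFEB. ADAM10 (chr15:58749658-58749957, minus strand) holds it 143 bases before the start as part of TCACGTG. ITGA6 (chr2:172427086-172427385, plus strand) holds it 101 bases before 1 of its 2 starts, and the window of its other start does not hold it. ITGA5 (chr12:54419217-54419516, minus strand) holds an AP-1 type match 6 bases before the start. MMP11 (chr22:23772599-23772898, plus strand), the metalloproteinase with the largest rise, holds none of the letters searched in this window. These 4 are printed 5′ to 3′ with the matched letters in capitals, that of MMP11 for comparison. The matched starts of LAMB3, COL24A1 and LOXL3 are not printed.
ADAM10: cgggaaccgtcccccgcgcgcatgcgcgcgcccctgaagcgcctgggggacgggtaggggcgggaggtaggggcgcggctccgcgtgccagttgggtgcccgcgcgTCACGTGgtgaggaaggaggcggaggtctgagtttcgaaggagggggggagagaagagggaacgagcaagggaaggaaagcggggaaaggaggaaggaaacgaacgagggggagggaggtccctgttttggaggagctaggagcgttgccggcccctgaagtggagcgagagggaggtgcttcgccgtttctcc
ITGA6: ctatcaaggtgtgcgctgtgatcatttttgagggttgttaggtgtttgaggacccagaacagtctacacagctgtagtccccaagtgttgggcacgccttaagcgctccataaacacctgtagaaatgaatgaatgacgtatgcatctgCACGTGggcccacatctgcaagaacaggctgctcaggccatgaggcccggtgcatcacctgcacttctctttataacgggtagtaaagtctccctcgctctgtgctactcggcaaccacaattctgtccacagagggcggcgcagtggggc
ITGA5: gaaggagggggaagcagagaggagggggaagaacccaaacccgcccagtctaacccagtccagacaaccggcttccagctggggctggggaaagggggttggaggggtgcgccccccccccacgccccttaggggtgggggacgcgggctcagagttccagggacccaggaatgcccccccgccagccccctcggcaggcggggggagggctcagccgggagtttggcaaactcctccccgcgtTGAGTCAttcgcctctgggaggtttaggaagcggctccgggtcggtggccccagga
MMP11: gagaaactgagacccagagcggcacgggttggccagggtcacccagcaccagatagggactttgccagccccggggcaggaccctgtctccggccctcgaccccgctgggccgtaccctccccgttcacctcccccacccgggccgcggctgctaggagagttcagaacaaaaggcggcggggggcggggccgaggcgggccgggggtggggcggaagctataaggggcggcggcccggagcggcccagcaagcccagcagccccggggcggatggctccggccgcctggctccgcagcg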

How the data were processed

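The 6 mRNA libraries of DU145 cells, 3 per group, were grouped by the sample labels. Libraries were made with the NEBNext Ultra kit, and the submitters' processing notes name CASAVA 1.8, HISAT2 2.1.0, edgeR and GRCh38. The study's methods name DESeq2. The counting program, the annotation and the strand setting are not given in the sources used here, and gene positions equal those of GENCODE 29 for 10541 of 10542 genes. The authors deposited a normalized signal, each gene's reads divided by 1 size factor per library (0.950 to 1.099). All values were whole reads after this division was undone, within a tolerance of 0.01. The authors also deposited group means, log2 fold changes and p-values, of which only the adjusted p-values were read, to count that all 10542 genes were below 0.05.

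log2(normalized count + 1) was fitted with limma 3.58.1 in R 4.3.3 with a mean-variance trend and no block, with Benjamini-Hochberg adjustment over all listed genes. A gene was called at an adjusted p below 0.05 if its log2 fold change exceeded 1.5 in size. The trend was removed by loess (span 0.5) on log2 gene length and the GC content of the longest GENCODE 29 transcript. Scripts were tested on simulated data. Libraries within a group differed by more than sampling noise (chi-square per gene 2.97 to 27.2, against 164.6 to 326.5 between groups), so each counted as 1 replicate. Intervals cover counting error only. Alternatives covered the pseudocount, a filter, scaling, DESeq2 1.42.0 and edgeR 4.0.16 on recovered reads, the replicate block, the trend, the cutoff, membership and each library left out.

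The genes and lists were chosen with earlier results of these data known. Values in every library are given for called genes, for the 2 highest and 2 lowest of each class, for all MMPs, TIMPs, lysyl oxidases, thrombospondins and FN1, for chains of type IV and VI collagen and of epithelial laminin, for ITGA6, ITGB1, ITGA2, ITGA3 and ITGA5, and for up to 2 higher and 2 lower genes of each other list. COL18A1, COL12A1, COL13A1, LAMA1, ITGB5, ADAM9, ADAM17 and CHCHD10 were added after their values were seen. Protein sequences were not analysed here, and 1 gene of the list and 1 marker gene are not reported here.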

Additional observations from a re-analysis of the deposited data

How the results depend on the processing

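In direction, 46 genes were higher and 18 lower with every alternative that tested all 64 genes except removal of the trend, and outside that removal 4 or fewer lost their significance under any setting, while the counts past the fold cutoff and the medians moved. Against 5 genes called higher and 5 lower, there were 3 and 3 with a mean normalized count of at least 50 (57 of the 64 genes, 43 higher and 14 lower), 10 and 2 after size factors were estimated again by DESeq2, 9 and 2 with quantile normalization, 10 and 2 with DESeq2 on the recovered reads, and 15 and 10 at a cutoff of 1. The genes called higher with DESeq2 but not in the main fit were COL18A1 (1.57), COL9A3 (1.71), MMP14 (1.62), ADAM11 (1.52) and ADAMTS10 (1.52). A pseudocount of 10 left 2 called lower, edgeR on the recovered reads 3, and with the trend removed 3 were called higher. Calls over all listed genes moved too, from 268 higher and 1741 lower. They became 466 and 1104 with DESeq2 size factors, 563 and 808 with quantile normalization, and 484 and 1078 with DESeq2. With a pseudocount of 10 they were 70 and 1191, with edgeR 329 and 1528, and with the trend removed 151 and 449. With the filter, which kept 9326 genes, they were 71 and 1289. The scaling moved all listed genes together, to a median of -0.12 by DESeq2 size factors and -0.031 with quantile normalization, and relative to it the median of the 64 genes was 1.05 and 0.89. The medians were 0.93 for all 64 genes, 0.83 for collagens, 0.71 for laminins, 0.96 for integrins, 1.09 for MMPs, 0.27 for ADAMs, 1.23 for ADAMTSs and 0.82 for the TIMP, LOX, THBS and FN1 group with DESeq2 size factors. They were 0.86 for all 64 genes, 0.82 for collagens, 1.15 for integrins, 1.14 for MMPs, 0.25 for ADAMs, 1.35 for ADAMTSs and 0.86 for the TIMP, LOX, THBS and FN1 group with quantile normalization, 0.93 for all 64 genes, 0.83 for collagens, 0.71 for laminins, 0.96 for integrins, 1.11 for MMPs, 0.28 for ADAMs, 1.24 for ADAMTSs and 0.82 for the TIMP, LOX, THBS and FN1 group with DESeq2, and 0.77 for all 64 genes, 0.67 for collagens and 0.12 for ADAMs with edgeR. With the filter they were 0.78 for collagens, 0.59 for ADAMs and 0.70 for the TIMP, LOX, THBS and FN1 group, and without COL4A3BP 0.78 for collagens. With the trend removed, with or without the replicate block, they were -0.14 for all 64 genes, -0.31 for collagens, -0.26 for laminins, 0.20 for integrins, 0.13 for MMPs, 0.21 for ADAMs, -0.086 for ADAMTSs and 0.077 for the TIMP, LOX, THBS and FN1 group. Without MMP24OS, the MMP median with the trend removed was -0.22. The sign then turned in COL4A2 (-0.38), COL13A1 (-0.49), COL8A2 (-0.22), COL6A2 (-0.31), COL6A1 (-0.18), COL26A1 (-0.12), COL11A2 (-0.040), LAMB3 (-0.34), LAMB2 (-0.18), LAMC3 (-0.12), ITGB1 (0.30), ITGA3 (-0.17), ITGA7 (-0.25), ITGA2B (-0.25), MMP15 (-0.27), MMP28 (-0.22), ADAM17 (0.49), ADAM22 (0.29), ADAM15 (-0.40), ADAMTS15 (-0.28), ADAMTS13 (-0.17), ADAMTS14 (-0.010), ADAMTS7 (-0.086), LOX (0.0075), TIMP1 (-0.54), THBS3 (-0.33) and LOXL2 (-0.17), and 9 more genes lost significance. The cause was not tested. Signs are counted from 0 here, while the median of all listed genes was -0.30 with the trend removed. Among the genes that turned negative, COL4A2, COL13A1, COL6A2, LAMB3, ADAM15, TIMP1 and THBS3 lay below that median and the others above it.

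Leaving out each library in turn gave 3 to 6 genes called higher, the lowest without DU145-TFEB library 3, and 3 to 6 called lower, the lowest without DU145-TFEB library 1 and without DU145-vector library 2. Over all listed genes these fits called 243 to 295 higher and 1289 to 2048 lower. The medians then ran from 0.61 to 0.72 for all 64 genes, 0.48 to 0.69 for collagens, 0.40 to 0.51 for laminins, 0.61 to 0.76 for integrins, 0.77 to 0.95 for MMPs, 0.0058 to 0.14 for ADAMs, 0.93 to 1.04 for ADAMTSs and 0.52 to 0.64 for the TIMP, LOX, THBS and FN1 group, and the ADAM median of 0.14 came without DU145-TFEB library 2. Same-numbered libraries did not deviate together (correlations of -0.018, -0.25 and -0.14 between the groups), and differently numbered ones ran from -0.15 to 0.25. With 3 libraries per group, whose deviations sum to 0, these correlations cannot exclude a pairing. A fit with the replicate block called 5 genes higher and 5 lower and changed no call among the 64 genes. Levels of the low genes COL14A1, COL21A1 and ADAM32 are limited by counting error. Reads on genes outside the table are not counted in the totals.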

Other observations

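Of 28 genes of focal adhesions, the plaques through which integrins hold actin, 19 were listed, 10 of them higher and 9 lower in DU145-TFEB (median log2 fold change 0.24), and after subtraction of the trend on base composition and length 4 were higher and 15 lower (median -0.41). FERMT2, a kindlin that activates beta integrins, fell from 3571, 4047 and 3671 in the DU145-vector libraries to 1206, 1106 and 1304 in the DU145-TFEB libraries (-1.64, SE 0.085, adjusted p = 2.30e-06, limma) and was called lower. PARVA, a parvin of the plaque, fell from 451, 548 and 416 to 183, 212 and 190.0 (-1.26). FERMT3, the kindlin of blood cells, had 46.3, 54.6 and 48.8 against 29.4, 23.4 and 24 (0.94), and the tensin TNS2 had 1110.1, 1056 and 1065 against 630.3, 588 and 604 (0.83). FERMT2 and PARVA were at -0.47 and -0.68 with the trend removed, FERMT3 and TNS2 at -0.090 and -0.13.

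Of 14 genes of the plasminogen system and protease inhibitors, 5 were listed, 3 higher and 2 lower (median 0.33), and with the trend removed 2 were higher and 3 lower (median -0.21). BSG, an inducer of MMPs, had 20480.5, 23176 and 19163 against 12406, 11145 and 12360 (0.80, and -0.21 with the trend removed). HPN, the serine protease hepsin, had 5.26, 2.73 and 6.23 against 0 in each DU145-vector library (2.47), and was the gene of this list called higher. It rests on 5, 3 and 6 reads and did not pass the test with the trend removed (1.39, limma adjusted p = 0.0525). RECK, a membrane-bound inhibitor of MMPs, fell from 1088, 1217 and 1039 to 663, 576 and 703 (-0.79, and -0.35 with the trend removed), and SERPINE2 was at -0.41, against 0.47 with the trend removed.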
